A study of Homo sapiens with 4 samples.

Results

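The genes described here are the DOCK exchange factors of the A and B subfamilies (DOCK1 to DOCK5), their adaptors ELMO1, ELMO2 and ELMO3, and the GTPases RAC1 and RAC2. They were taken by symbol, and all 10 were found among the 61806 genes of the deposited table. RNA with a poly(A) tail was sequenced from a breast cancer line, MDA-MB-231, and a melanoma line, MDA-MB-435, both established and labelled wild type. Each line gave 1 control library and 1 library after CPYPP at 10 µM for 6 h, so that 4 libraries were compared. The notes on growth and treatment mention MDA-MB-435 alone, so the line of each library was read from its cell line label.

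DOCK proteins of the A and B subfamilies load RAC GTPases with GTP through a catalytic DHR-2 domain. ELMO proteins bind DOCK proteins of these subfamilies and bring them to the membrane. Active RAC turns on PAK kinases and the WAVE complex, and through it the Arp2/3 complex, which builds the branched actin of lamellipodia in migrating cells. CPYPP is a small molecule made as an inhibitor of DOCK2, which is known mainly from leukocytes, as is RAC2, while DOCK1 and RAC1 are used by most cell types. The data therefore bear on which of these RNAs each line held, and on whether their levels differed after the compound.

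Bases upstream of the start are shown for DOCK1, the broadly used exchange factor, and for DOCK2 and ELMO1, the members whose levels were furthest apart between the lines. Each run holds the 250 bases before a RefSeq transcription start in GRCh38.p14, written 5′ to 3′ on the strand of the gene. Capitals mark copies of GAGGAA, the letters of a PU.1-type ETS site, of CATGTG, the E-box letters that MITF can bind, and of GGGCGG, a GC box, on either strand. TATAAA was searched as well. Copies of 1 motif that overlap were counted separately, and no copy overlapped another motif. ELMO1 has 4 RefSeq starts with an entry, and the one closest to the 5′ end of the deposited gene and inside it is shown.
DOCK1, chr10:126905178-126905427, plus strand: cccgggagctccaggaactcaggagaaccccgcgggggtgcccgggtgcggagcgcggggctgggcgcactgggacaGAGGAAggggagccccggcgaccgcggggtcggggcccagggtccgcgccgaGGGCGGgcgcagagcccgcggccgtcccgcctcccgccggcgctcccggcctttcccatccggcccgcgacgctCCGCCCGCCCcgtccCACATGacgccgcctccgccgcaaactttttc
DOCK2, chr5:169637025-169637274, plus strand: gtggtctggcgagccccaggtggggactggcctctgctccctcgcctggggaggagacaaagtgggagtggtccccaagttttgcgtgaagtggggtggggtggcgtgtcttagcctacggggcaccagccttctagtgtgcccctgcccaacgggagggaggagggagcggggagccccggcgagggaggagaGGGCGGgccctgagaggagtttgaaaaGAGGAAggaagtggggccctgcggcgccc
ELMO1, chr7:37448865-37449114, minus strand: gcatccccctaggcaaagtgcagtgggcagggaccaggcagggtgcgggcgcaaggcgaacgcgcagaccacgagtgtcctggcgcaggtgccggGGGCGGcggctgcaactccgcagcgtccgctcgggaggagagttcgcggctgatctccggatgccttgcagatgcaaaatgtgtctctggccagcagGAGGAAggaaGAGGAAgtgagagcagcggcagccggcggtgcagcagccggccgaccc

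The DOCK1 window held 37 CG pairs, more than 96.0% of the 35116 promoters searched, whose median was 11. The DOCK2 window held 12 and the ELMO1 window 22. GAGGAA occurred once in DOCK1, once in DOCK2 and 2 times in ELMO1, and 23.6% of all promoters had at least 1 copy. CATGTG was found once, in DOCK1, against 9.42% of all promoters. GGGCGG was found 3 times in DOCK1 and once each in DOCK2 and ELMO1, against 42.6% of all promoters. TATAAA, held by 10.7% of promoters, was in none of these 3 windows. These are letter matches, and binding was not measured.

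Reads counted on genes came to between 17196385 and 22663954 per library, with the smaller total in the CPYPP library of each line. Some defining markers separated the lines and others did not. SOX10, a melanocyte transcription factor, had 0 and 1 counts in MDA-MB-231 against 3031 and 707 in MDA-MB-435, while MITF, of the same list, had 1585 and 690 against 1405 and 809. Of the 7 markers of MDA-MB-231, KRT19, an epithelial keratin, had 3953 and 2225 counts against 4 and 0, and KRT7, KRT8, KRT18 and EGFR were also higher in that line, but VIM (38484 and 24404 against 98483 and 68113) and CD44 (27537 and 20016 against 36689 and 27990) were higher in MDA-MB-435. Of the other melanocyte markers, DCT, also a pigment gene, had 1 and 3 counts in MDA-MB-231 against 658 and 464 in MDA-MB-435. S100B had 0 and 0 against 1055 and 761. The pigment genes MLANA, TYR, PMEL and TYRP1 were each at 34 counts or fewer in every library. Of 12 leukocyte markers, the defining SPI1, TYROBP, CD3E and CD53 had 3 counts or fewer in each library, and the summed level of the list was 6.90 and 6.84 FPKM in MDA-MB-231 and 0.800 and 0.929 FPKM in MDA-MB-435. LAPTM5 gave most of it in MDA-MB-231. FPKM divides the count by the exon length in kilobases and by the TMM-scaled library total in megareads.

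Each line expressed DOCK1, DOCK5 and ELMO2 at similar levels and RAC1 and RAC2 above them. In the control libraries the order per exon length was RAC1, RAC2, DOCK1, DOCK5, ELMO2, DOCK4, DOCK2, ELMO3, DOCK3 and ELMO1 in MDA-MB-231. It was RAC2, RAC1, DOCK1, DOCK5, ELMO2, DOCK4, ELMO1, ELMO3, DOCK2 and DOCK3 in MDA-MB-435. The 95% counting intervals of neighbours overlapped for DOCK5 and ELMO2, for ELMO1 and ELMO3 and for DOCK2 and DOCK3 in the MDA-MB-435 control, and for no neighbours in the MDA-MB-231 control. After CPYPP they overlapped for ELMO3 and DOCK3 in MDA-MB-231, and for ELMO2 and DOCK5 and for ELMO1 and ELMO3 in MDA-MB-435. The intervals cover counting error only.

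**Figure D1:**
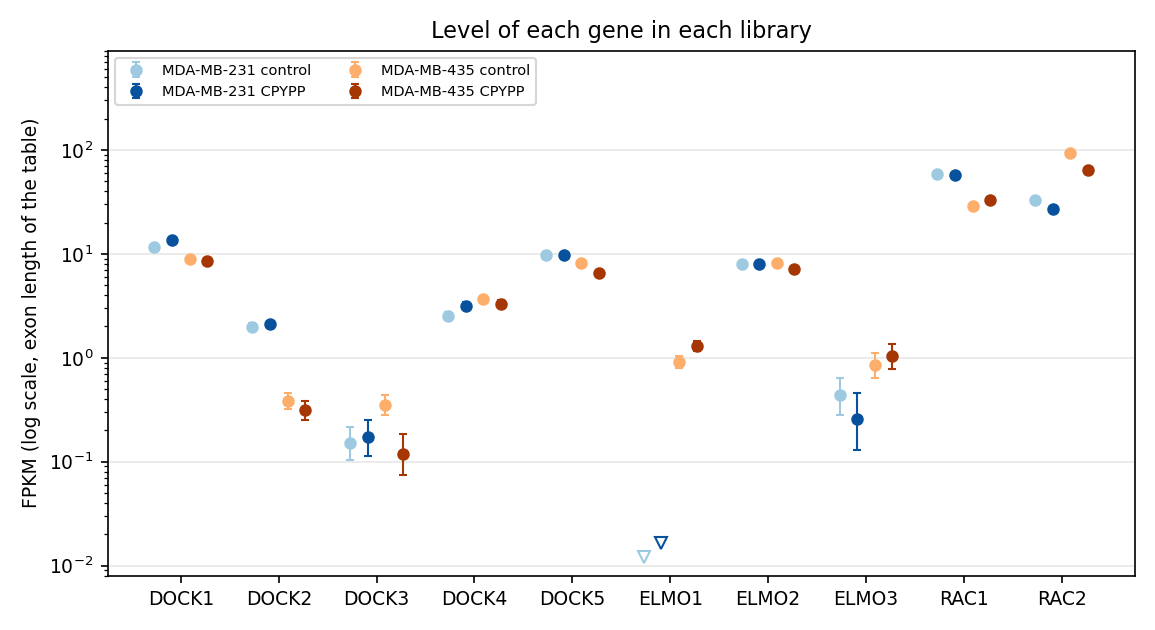
Level of each gene in each of the 4 libraries, in FPKM on a log axis. Points are single libraries, bars are 95% exact Poisson intervals of the count, and open triangles mark the level that 3 counts would give where the count was 0. DOCK2 lay about 2 FPKM in MDA-MB-231 and under 0.4 FPKM in MDA-MB-435, ELMO1 had no count in MDA-MB-231, and RAC1 and RAC2 changed places between the lines.

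DOCK1, at chr10:126905409-127452517, is the founding exchange factor of the A subfamily and acts in phagocytosis and migration. It had 2141 and 1849 counts without and with CPYPP in MDA-MB-231, against 1724 and 1341 in MDA-MB-435, or 11.7, 13.7, 8.94 and 8.51 FPKM. Both libraries of MDA-MB-231 were above both of MDA-MB-435. INSYN2A, on the opposite strand inside the span of DOCK1, had 28 counts or fewer. The line difference, 435 minus 231 averaged over treatment, was −0.54 ± 0.12 (log2, SE), with an adjusted p of 0.00281 in edgeR's quasi-likelihood test with Benjamini-Hochberg adjustment over 16801 genes.

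DOCK5, also of the A subfamily and known from osteoclasts and cell spreading, had the most counts of DOCK1 to DOCK5 in each library. Its counts were 3507 and 2567 in MDA-MB-231 against 3095 and 2023 in MDA-MB-435, or 9.79, 9.71, 8.17 and 6.54 FPKM. Per exon length it was below DOCK1 in all 4 libraries, and below ELMO2 as well in the MDA-MB-435 library with CPYPP. With the length of the longest coding transcript in GENCODE v29 instead, DOCK5 stood above DOCK1 in 3 of the 4 libraries, with 40.6% against 36.8% of the DOCK A and B total in the MDA-MB-231 control, so the order of these genes depends on the length used. The line difference of DOCK5 was −0.42 ± 0.12 (log2, SE; edgeR quasi-likelihood, Benjamini-Hochberg adjusted p = 0.0105, and 0.0854 without treatment in the model).

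DOCK2, the gene of the protein that CPYPP was made to inhibit, lies at chr5:169637268-170083382. It had 649 and 505 counts in MDA-MB-231 against 134 and 88 in MDA-MB-435, or 1.98, 2.09, 0.387 and 0.311 FPKM. Both libraries of MDA-MB-231 were well above both of MDA-MB-435. The control library of MDA-MB-231 held 5.12 times the level of the MDA-MB-435 control (95% counting interval 4.25 to 6.22), and the ratio was 6.72 (5.35 to 8.53) between the CPYPP libraries. The line difference was −2.54 ± 0.19 (log2, SE; edgeR quasi-likelihood, Benjamini-Hochberg adjusted p = 1.38e-06). In a culture, fewer cells with an RNA and less of it in each cell cannot be told apart.

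DOCK2 RNA was the smallest part of the A subfamily in each line. It made up 7.57% and 7.24% of the FPKM of DOCK1 to DOCK5 in MDA-MB-231 against 1.80% and 1.66% in MDA-MB-435, while DOCK1 made up 41.6% to 47.6%. With the length of the longest coding transcript the shares of DOCK2 were 12.4% and 12.0%, and 3.06% and 2.83%, so it was still the smallest of the subfamily. LAPTM5 followed the same order between the lines, with 443 and 316 counts against 3 and 13, as did PTPRC, with 36 and 9 against 0 and 2, but not CORO1A, with 24 and 16 against 34 and 17. The other 9 leukocyte markers each had 13 counts or fewer in every library. INSYN2B, on the opposite strand inside the span of DOCK2, had 457, 219, 203 and 66 counts, and its exons share no base with those of DOCK2 in GENCODE v29. A further gene on the same strand, ENSG00000289702, had at most 1 count.

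The B subfamily was represented mainly by DOCK4, at chr7:111726110-112206407, an exchange factor for RAC in adhesion and WNT signalling. Its counts were 670 and 618 in MDA-MB-231 against 1017 and 756 in MDA-MB-435, or 2.54, 3.18, 3.65 and 3.32 FPKM. The libraries of MDA-MB-435 were the higher ones, by less in the CPYPP libraries. The line difference of DOCK4 was 0.29 ± 0.16 (log2, SE) and did not pass the threshold (edgeR quasi-likelihood, Benjamini-Hochberg adjusted p = 0.124). DOCK3, at chr3:50674927-51384198 and first known from neurons, had 31 and 26 counts in MDA-MB-231 against 76 and 21 in MDA-MB-435, the lowest FPKM of DOCK1 to DOCK5 in all 4 libraries, although its interval overlapped that of DOCK2 in the MDA-MB-435 control. An opposite-strand gene inside its span, ENSG00000288988, had 4, 1, 21 and 8 counts.

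ELMO2, at chr20:46366050-46432985, was the main adaptor in each line. It had 1168 and 872 counts in MDA-MB-231 against 1271 and 919 in MDA-MB-435, or 7.90, 8.00, 8.13 and 7.20 FPKM. The line difference of ELMO2 was −0.05 ± 0.13 (log2, SE; edgeR quasi-likelihood, Benjamini-Hochberg adjusted p = 0.740). ELMO2 made up 94.8% and 96.9% of the ELMO total in MDA-MB-231 against 82.2% and 75.4% in MDA-MB-435. An opposite-strand gene, ENSG00000273828, shares 195 exon bases with it in GENCODE v29 and had 10 to 17 counts per library. Whether reads were counted by strand is not given in the sources used here, so reads from these shared bases cannot be told apart.

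ELMO1, at chr7:36852906-37449223 and known from the engulfment of dying cells and as a partner of DOCK2 in leukocytes, was the sharpest difference between the lines. It had 0 and 0 counts in MDA-MB-231 against 238 and 277 in MDA-MB-435, the latter at 0.913 and 1.30 FPKM. For the ratios a count of 0 was set to 3 counts, or 0.0122 and 0.0165 FPKM in these libraries. The upper 95% Poisson limits of these counts were higher, at 0.0150 and 0.0203 FPKM. Against 3 counts, ELMO1 was 75.0-fold higher in the MDA-MB-435 control and 78.8-fold higher after CPYPP. Against the counts of 0 themselves, the lower 95% counting limits were 60.5 and 63.7. They are not limits of the ratios against 3 counts, for which no interval was computed. The line effect had an adjusted p of 9.08e-07 (edgeR quasi-likelihood, Benjamini-Hochberg). ELMO3, at chr16:67199111-67204029, had 25 and 11 counts in MDA-MB-231 against 52 and 52 in MDA-MB-435, with a line difference of 1.43 ± 0.48 (log2, SE; edgeR quasi-likelihood, Benjamini-Hochberg adjusted p = 0.0224).

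RAC1, at chr7:6374527-6403967, and RAC2, at chr22:37225270-37259594, stood in opposite order in the lines. RAC1 had 10649 and 7707 counts in MDA-MB-231 against 5477 and 5111 in MDA-MB-435, or 58.7, 57.6, 28.6 and 32.6 FPKM. RAC2 had 1917 and 1164 counts in MDA-MB-231 against 5819 and 3235 in MDA-MB-435, or 32.7, 26.9, 93.9 and 63.9 FPKM. Every library of MDA-MB-231 was above every library of MDA-MB-435 for RAC1, and below for RAC2.

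RAC1 was 2.06-fold (95% counting interval 1.99 to 2.12) higher in the MDA-MB-231 control, with a line difference of −0.93 ± 0.11 (log2, SE; edgeR quasi-likelihood, Benjamini-Hochberg adjusted p = 4.71e-05). RAC2 was 2.87-fold (2.73 to 3.02) higher in the MDA-MB-435 control, with a line difference of 1.39 ± 0.12 (log2, SE; edgeR quasi-likelihood, Benjamini-Hochberg adjusted p = 3.27e-06). RAC1 made up 64.2% and 68.1% of the RAC1 and RAC2 total in MDA-MB-231 against 23.3% and 33.8% in MDA-MB-435. With the length of the longest coding transcript the shares of RAC1 were 78.0% and 80.9%, and 37.5% and 50.2%, so that the excess of RAC2 in MDA-MB-435 did not hold on that scale after CPYPP. RAC1P2, a pseudogene copy of RAC1, had 14 to 39 counts per library, and the other RAC1 copies had 0.

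In all, 7 of the 10 genes passed the threshold of adjusted p under 0.05 for the line effect, 3 higher in MDA-MB-435 and 4 lower, where 62.9% of all genes tested did, 30.5% higher and 32.4% lower. The members' share lies near that of all genes. The 2 libraries of a line differ in treatment. The fit leaves 1 residual degree of freedom per gene, and edgeR moderates the variance across genes, so the p-values also rest on the other genes.

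**Figure D2:**
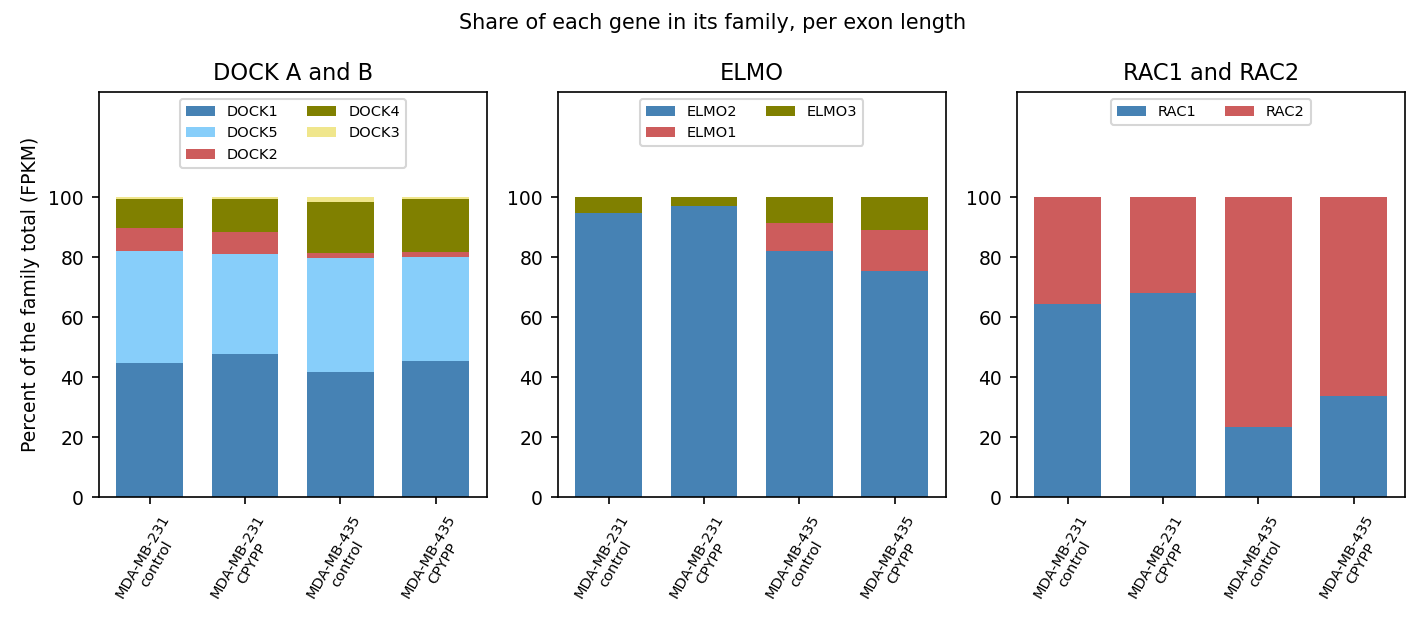
Share of each gene in the summed FPKM of its family, in percent, for the control and CPYPP libraries of each line. DOCK1 and DOCK5 made up most of the DOCK A and B total in all 4 libraries, ELMO2 most of the ELMO total, and RAC2 exceeded RAC1 in MDA-MB-435 on this scale.

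Next, each gene was compared between CPYPP and control within a line. Since there was 1 library per condition, no p-value was computed. A gene was called where the ratio of TMM-scaled counts passed 2-fold, among genes with at least 10 counts in 1 of the libraries compared. The TMM factors of these ratios were estimated within the line, and those of FPKM over the 4 libraries. Quotients of the FPKM values can therefore differ from these ratios. Of 16441 genes tested in MDA-MB-231, 10.8% were called, 5.4% higher and 5.43% lower, and of the 9 members tested 0 were. Of 16527 genes tested in MDA-MB-435, 13.8% were called, 4.02% higher and 9.75% lower, and of the 10 members 1 was, DOCK3, as lower. The median log2 change of the members was 0.03 in the first line and −0.08 in the second, and over all genes tested it was −0.01 and −0.02.

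Among the A subfamily, the CPYPP-to-control ratio of DOCK1 was 1.18 (95% counting interval 1.11 to 1.25) in MDA-MB-231 and 1.00 (0.933 to 1.08) in MDA-MB-435. That of DOCK2 was 1.06 (0.944 to 1.19) and 0.847 (0.640 to 1.12), so neither interval for the intended target of CPYPP excluded 1. That of DOCK5 was 0.999 (0.949 to 1.05) and 0.843 (0.797 to 0.892). No ratio in this subfamily reached 1.5-fold in either direction.

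In the B subfamily, DOCK3 went from 76 to 21 counts in MDA-MB-435, a ratio of 0.356 (0.209 to 0.584), while in MDA-MB-231 it had 31 and 26 counts and a ratio of 1.14 (0.653 to 1.99). The upper end of the MDA-MB-435 interval lies above 0.5, so DOCK3 was no longer called where the whole interval had to be past 2-fold. The opposite-strand gene ENSG00000288988 went from 21 to 8 counts in that line, and its part in the value of DOCK3 was not tested. DOCK4 had a ratio of 1.26 (1.13 to 1.41) in MDA-MB-231 and 0.959 (0.871 to 1.05) in MDA-MB-435.

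Among the adaptors, ELMO1 was at 1.501 (1.26 to 1.79) in MDA-MB-435, the highest ratio of any member. With other scalings this ratio was 1.35 (library totals), 1.39 (upper quartile), 1.48 (TMM over all genes) and 1.51 (DESeq2 size factors). ELMO2 was at 1.02 (0.932 to 1.11) and 0.932 (0.856 to 1.02), and the first of these was below 1 when scaled by library totals, upper quartile or TMM over all genes. ELMO3, at low counts, was at 0.601 (0.267 to 1.27) in MDA-MB-231 and 1.29 (0.861 to 1.93) in MDA-MB-435.

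RAC2 was lower after CPYPP in each line, at 0.829 (0.770 to 0.892) in MDA-MB-231 and 0.717 (0.686 to 0.749) in MDA-MB-435. RAC1 was at 0.988 (0.959 to 1.02) and 1.20 (1.16 to 1.25). The counting interval lay wholly below 1 for 1 of 9 members in MDA-MB-231, RAC2, where it did so for 23.6% of all genes. In MDA-MB-435 it lay wholly below 1 for DOCK3, DOCK5 and RAC2, 3 of 10 members, where it did so for 25.9%. It lay wholly above 1 for DOCK1 and DOCK4 in the first line, 2 of 9 against 26.3% of all genes, and for ELMO1 and RAC1 in the second, 2 of 10 against 29%. With library totals or upper quartile, DOCK1, DOCK4 and ELMO2 were also wholly below 1 in MDA-MB-435, which made 6 of 10 against 38.8% and 35.4% of all genes. RAC1 was also wholly below 1 in MDA-MB-231 under these scalings and with TMM over all genes, which made 2 of 9 against 26.7% to 30.6%.

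**Figure D3:**
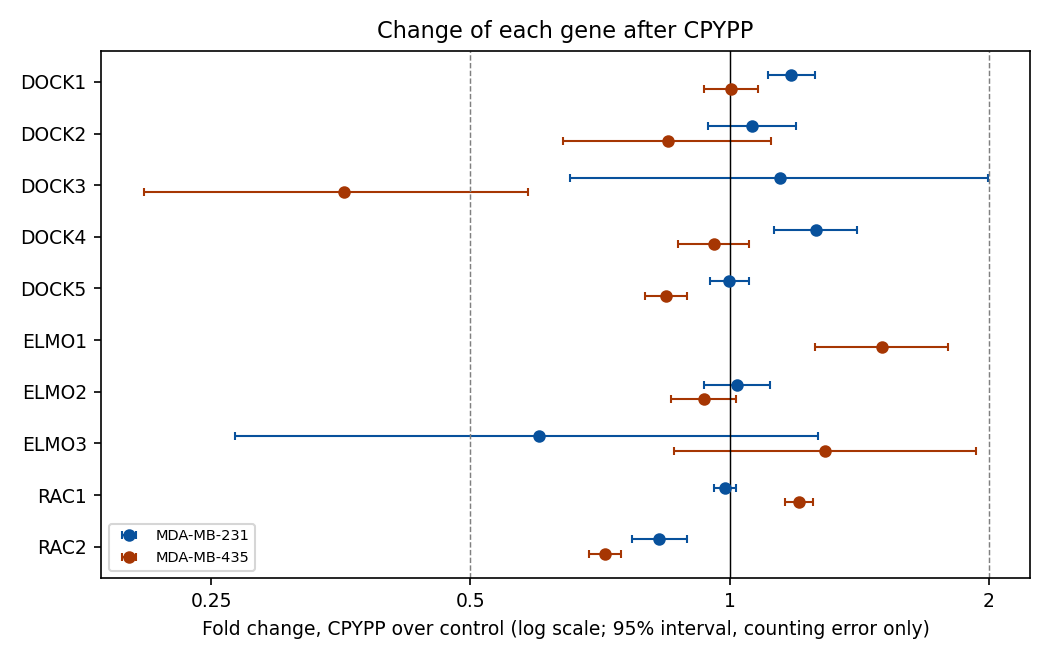
Ratio of CPYPP to control for each gene in either line, on a log axis, with 95% exact binomial intervals for counting error. Dashed lines mark 2-fold in each direction. DOCK3 in MDA-MB-435 is the only point past a dashed line, at 0.356, and ELMO1 has no ratio in MDA-MB-231, where it had no count.

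With the line as a block, the effect of CPYPP common to the lines was fitted over the 4 libraries. None of the 10 genes passed an adjusted p of 0.05 in edgeR's quasi-likelihood test with Benjamini-Hochberg adjustment, where 7.23% of 16801 genes did, 4.39% higher and 2.85% lower, and 1 of the 10, RAC2, had an unadjusted p under 0.05, where 21.1% of all genes did. RAC2 was the nearest, at −0.42 ± 0.12 (log2, SE; edgeR quasi-likelihood, Benjamini-Hochberg adjusted p = 0.0562) and lower in both lines. Over 7 alternatives its adjusted p ran from 0.00349, with DESeq2's Wald test, to 1.0, without the block, and it passed the threshold in 6 of them. For DOCK2 the common change was −0.08 ± 0.19 (log2, SE; edgeR quasi-likelihood, Benjamini-Hochberg adjusted p = 0.859), and the other members had adjusted p-values of 0.482 or more. The error in this fit is the difference between the responses of the lines, not between cultures of 1 line.

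The overlapping gene INSYN2B, which shares no exon base with DOCK2, had a common change of −0.93 ± 0.23 (log2, SE; edgeR quasi-likelihood, Benjamini-Hochberg adjusted p = 0.0377), with ratios of 0.654 and 0.419. The value of DOCK2 beside it was nearer to 1 in each line.

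A difference between the lines' responses leaves no residual degree of freedom, so only its counting interval can be given. The log2 change in MDA-MB-435 minus that in MDA-MB-231 was −1.68 (−2.71 to −0.66) for DOCK3, −0.39 (−0.60 to −0.19) for DOCK4, −0.25 (−0.35 to −0.14) for DOCK5 and −0.23 (−0.37 to −0.10) for DOCK1. It was 0.28 (0.22 to 0.35) for RAC1 and −0.21 (−0.33 to −0.09) for RAC2. For DOCK2, ELMO2 and ELMO3 the interval included 0. All 5 DOCK genes had the lower change in MDA-MB-435, for DOCK2 within counting error. The share of all genes with an interval excluding 0 was not computed. The differences are therefore not read as a trait of these members.

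Further genes of the pathway were taken as 6 lists. Of the DOCK genes of the C and D subfamilies, 0 of 5 tested were past 2-fold in either line, with median log2 changes of 0.30 and −0.07, and 1 rose in the common fit. DOCK10, of the D subfamily, had 190 and 262 counts in MDA-MB-231 against 5103 and 6972 in MDA-MB-435. Its level was higher after CPYPP in each line, at ratios of 1.88 (1.56 to 2.28) and 1.76 (1.70 to 1.83), and it rose in the common fit by 0.81 ± 0.12 (log2, SE; edgeR quasi-likelihood, Benjamini-Hochberg adjusted p = 0.00315). In MDA-MB-435 it had more counts than any of DOCK1 to DOCK5, at 17.9 and 29.9 FPKM.

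Upstream of DOCK and ELMO, 1 of 25 receptors and adaptors was past 2-fold higher in MDA-MB-231 and 0 of 23 in MDA-MB-435, with medians of 0.20 and 0.11 on the log2 scale, and 1 of 25 rose in the common fit. MERTK, a receptor for dying cells, had 312 and 494 counts in MDA-MB-231, a ratio of 2.16 (1.87 to 2.50), and 0 and 0 in MDA-MB-435. SRC, the kinase that phosphorylates the scaffold BCAR1, rose in the common fit by 0.72 ± 0.14 (log2, SE; edgeR quasi-likelihood, Benjamini-Hochberg adjusted p = 0.0115). AXL, the most abundant of the list and a relative of MERTK, had ratios of 0.811 and 0.767, and its common change of −0.39 ± 0.11 (log2, SE) had an adjusted p of 0.0660 by edgeR's quasi-likelihood test with Benjamini-Hochberg adjustment.

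Of the other RAC exchange factors, 0 of 20 tested in each line were past 2-fold, and the median log2 changes were 0.26 and 0.04, and 1 of 23 rose in the common fit. SOS1, a dual exchange factor for RAS and RAC, had 1574 and 1757 counts in MDA-MB-231 against 1856 and 2063 in MDA-MB-435, and rose by 0.52 ± 0.11 in the common fit (log2, SE; edgeR quasi-likelihood, Benjamini-Hochberg adjusted p = 0.0230). ECT2, the most abundant of the list, had ratios of 0.805 and 0.905. Of 22 RAC inhibitors found in the table, 0 of 15 and 0 of 17 tested were past 2-fold, with medians of −0.14 in each line, and 1 of 16 fell in the common fit. ARHGAP22, a GTPase-activating protein for RAC1, had 491 and 207 counts in MDA-MB-231 against 715 and 319 in MDA-MB-435, a ratio of 0.575 in each, and fell by 0.84 ± 0.16 (log2, SE; edgeR quasi-likelihood, Benjamini-Hochberg adjusted p = 0.0124). ARHGDIA, the most abundant inhibitor, had ratios of 0.900 and 0.917.

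Downstream, 3 of 25 effectors were past 2-fold lower in MDA-MB-231 and 0 of 22 in MDA-MB-435, against 5.43% and 9.75% of all genes. In the common fit 0 passed the threshold. The median log2 changes were 0.08 and 0.03. Those lower were PLCB2, from 27 to 5 counts, and the NADPH oxidase genes NOXA1, from 76 to 18, and NOX1, from 30 to 9. In MDA-MB-435, NOXA1 had 147 and 76 counts and NOX1 30 and 16, and PLCB2 had none. CFL1, the actin-severing cofilin and the most abundant of the list, had ratios of 0.972 and 1.04. All 9 Arp2/3 subunits were tested, 0 were called in either line or in the common fit, and the median log2 changes were −0.07 and 0.08. ACTR2, the most abundant, had ratios of 1.00 and 1.06.

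**Figure D4:**
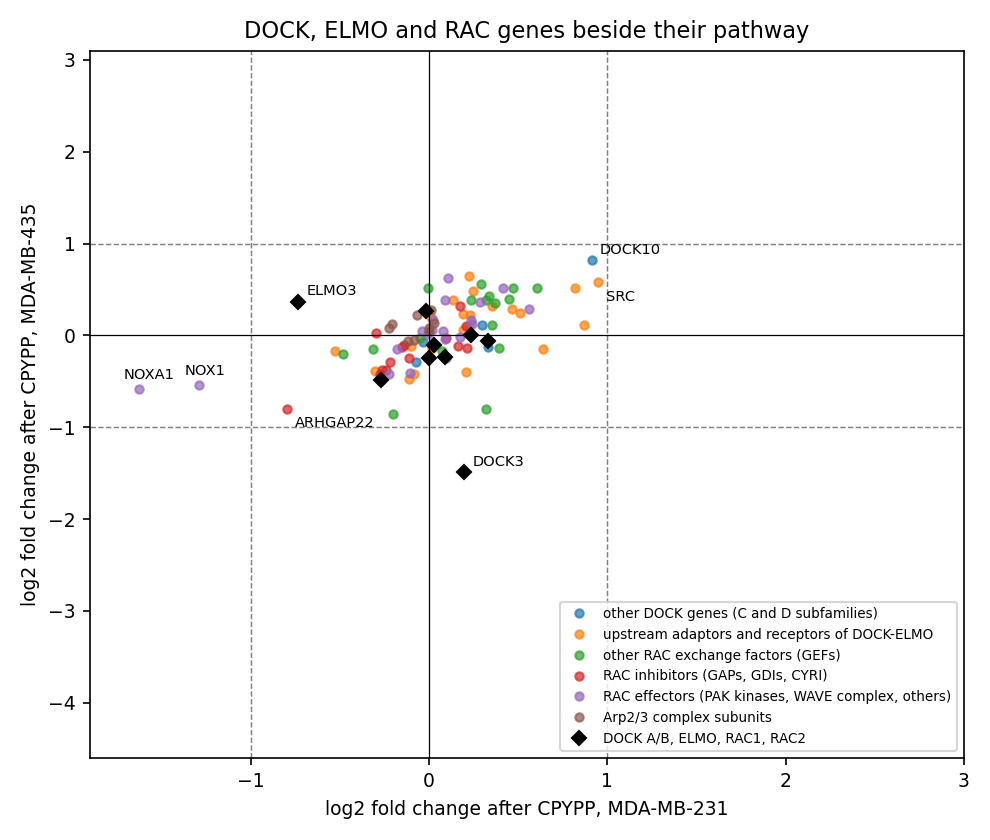
Log2 change after CPYPP, with MDA-MB-231 on the x axis and MDA-MB-435 on the y axis, for the 9 members with a value in each line (black diamonds) and for the genes of the 6 pathway lists (coloured points). Dashed lines mark 2-fold. DOCK3 lies past 2-fold lower in MDA-MB-435, NOXA1 and NOX1 past 2-fold lower in MDA-MB-231, and the other points plotted lie inside the dashed lines.

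Patterns most like those of 4 members were sought among 18705 genes, by the Euclidean distance between log2 levels centred on their mean over the 4 libraries. The closest to DOCK1 was NUP188, with 5208, 4456, 4160 and 3250 counts, and the closest to DOCK2 was ATL1, with 346, 258, 67 and 42. They were followed by ENSG00000280351 and KLHL20 for DOCK1, and by ABCA11P and VTN for DOCK2. The closest to RAC1 was LRIG3, with 299, 219, 149 and 143 counts, followed by YIPF1 and YTHDC2. The closest to RAC2 was ENSG00000288728, with 13, 6, 59 and 30 counts, followed by PARTICL and NAV2-AS6. Within a distance of 0.5 there were 3415 genes for DOCK1, 307 for DOCK2, 2389 for RAC1 and 1106 for RAC2, so that 4 libraries left many genes alike.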

How the data were processed

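Poly(A) RNA of the 4 libraries was sequenced by a service provider, and the authors deposited raw counts of reads per gene with no normalization, with positions and exon lengths. The submitters' processing notes name cutadapt 1.9.1, HISAT2 2.2.1, HTSeq 0.6.1, DESeq2 and GRCh37.p13, with no strand setting. Of 58254 gene identifiers shared with GENCODE v29, 58241 had positions overlapping its GRCh38 positions, so the coordinates given are those of GRCh38. Library totals ranged from 17196385 to 22663954.

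Counts were analysed in R 4.3.3 (edgeR 4.0.16, DESeq2 1.42.0) and Python 3.11.15. Within a line, ratios of TMM-scaled counts were given with 95% Clopper-Pearson intervals, which cover counting error only. Counts of 3 or fewer were set to 3 for the ratios, while the intervals used the counts as deposited. The TMM factors of ratios within a line were estimated within that line. Those of FPKM, of ratios between lines and of the fits were estimated over the 4 libraries. The effect of CPYPP common to the lines and the line effect were fitted with edgeR's quasi-likelihood test (line and treatment as terms, filterByExpr, Benjamini-Hochberg adjustment over 16801 genes). The SE printed with these fits is the absolute log2 change divided by the square root of the F statistic. The libraries come with no statement on separate cultures. FPKM used the deposited exon lengths.

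The members, the 6 pathway lists and the 3 marker lists were chosen with earlier results of these data known, and 1 further list is not reported here. Named were all members, up to 4 genes called per pathway list by largest change, its most abundant gene, overlapping genes with at least 10 counts, and the genes closest in pattern to DOCK1, DOCK2, RAC1 and RAC2, at most 3 for each. ENSG00000289702, the marker genes and RAC1P2 were named after their values were seen. Alternatives concerned scaling, count filters, the fold limit, DESeq2's Wald test and the block, and TMM over all genes and transcript lengths were added after seeing the data. The procedure was tested on simulated data. Promoter sequences were from RefSeq (GRCh38.p14), where 7 members had an entry.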

Additional observations from a re-analysis of the deposited data

Results flagged for a closer look

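For 6 members the single comparison went one way in MDA-MB-231 and the other way in MDA-MB-435, and the difference between the lines was not tested, since 1 library per condition leaves no error to test it against. In that order, the CPYPP-to-control ratio was 1.06 and 0.847 for DOCK2, 1.14 and 0.356 for DOCK3, and 1.26 and 0.959 for DOCK4. It was 1.02 and 0.932 for ELMO2, 0.601 and 1.29 for ELMO3, and 0.988 and 1.20 for RAC1. With TMM within the line, the counting interval of the ratio included 1 in at least 1 line for each of these 6 members. With library totals or upper quartile, neither interval of DOCK4 or of RAC1 included 1. The same held for RAC1 with TMM over all genes. The share of all genes tested that went opposite ways was not computed, so the number is not read as a trait of these members. For ELMO2 both ratios were below 1 when scaled by library totals, upper quartile or TMM over all genes, and the other 5 members had opposite directions under each scaling tried. DOCK1 had opposite directions as well with library totals (1.12 and 0.905), upper quartile (1.14 and 0.929) and TMM over all genes (1.15 and 0.991), and so did DOCK5 with DESeq2 size factors (1.01 and 0.851).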

How the results depend on the processing

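Scaling shifted all genes together: the median log2 change in MDA-MB-435 was −0.02 with TMM, −0.16 with library totals and −0.13 with upper quartile, and the higher share of calls there was 29.2%, 19.7% and 21.6%. With library totals the log2 change in MDA-MB-435 was −0.14 for DOCK1, −0.21 for DOCK4, −0.40 for DOCK5, −0.25 for ELMO2, 0.12 for RAC1 and −0.63 for RAC2, and that of RAC1 in MDA-MB-231 was −0.088. With upper quartile it was −0.11 for DOCK1, −0.36 for DOCK5, 0.16 for RAC1 and −0.59 for RAC2 in MDA-MB-435, and −0.066 for RAC1 in MDA-MB-231. Genes called higher in MDA-MB-231 numbered 1679 with at least 1 count, 294 with at least 50 counts, 2037 at 1.5-fold and 227 with the whole interval past 2-fold, against 887, and genes called lower numbered 217 with at least 50 counts, 1962 at 1.5-fold and 106 with the whole interval, against 893. In MDA-MB-435 the same settings gave 1146, 309, 1795 and 230 higher, against 664, and 505, 3023 and 253 lower, against 1611. At 1.5-fold, 1 member was called lower in MDA-MB-231 (ELMO3) and 1 higher in MDA-MB-435 (ELMO1), and with the whole interval past 2-fold 0 were called lower in MDA-MB-435. In the common fit, 737 genes were higher and 478 lower by edgeR. Lower genes numbered 1087 with library totals, 812 with upper quartile, 850 with at least 1 count and 868 with DESeq2's Wald test, which gave 1263 higher. RAC2 was the 1 member called with library totals (−0.49), DESeq2 size factors (−0.42), upper quartile (−0.46), TMM over all genes (−0.42), at least 1 count (−0.42) and DESeq2's Wald test (−0.42), on the log2 scale. Without the line as a block 0 genes were higher and 0 lower by edgeR, with 167 genes at an unadjusted p under 0.05, DOCK2 and ELMO3 turned to 0.0191 and 0.0190 on the log2 scale, and DOCK5 lost its call for the line effect (−0.41, without treatment in the model). The cause of these changes was not tested. The block of the common fit pairs CPYPP with control within a line. The labels carry no replicate number to pair by, and leaving out a library leaves no residual degree of freedom. At low counts, as for ELMO3, the intervals are wide.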
